A study of Rattus norvegicus with 2 samples.

Results

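The genes described here are 9 transcription factors that pattern mesenchyme: Prrx1, Osr1, Tcf7l2, Tcf21, Twist1, Twist2, Tbx5, Tbx15 and Tbx18. They were chosen by name and not by their levels, although earlier results of these data were known. All 9 were found among the 23373 rat genes counted in both libraries, and all 9 among the 25906 mouse genes counted in the chimera library.

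The libraries came from skeletal muscle of the whole body of 1 Sprague Dawley (SD) rat and of 1 rat-mouse chimera, which is an SD rat that was injected as a morula with mouse induced pluripotent stem cells (iPSCs) and therefore holds cells of both species. The iPSCs carried the Dmd mdx mutation, which had been edited, and a Pax7-nGFP reporter that marks satellite cells, while the SD rat received no cells. The labels give no age for either animal, and each group is 1 animal and 1 library. Muscle of both animals was digested with collagenase II, live cells were sorted with the viability dye Calcein Violet, and single-cell RNA sequencing (scRNA-seq) of the 3′ ends of transcripts was done on the 10x Genomics platform. Counts are of unique molecular identifiers (UMIs), each of which stands for 1 captured transcript.

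Fibro-adipogenic progenitors (FAPs) are the resident fibroblasts of muscle, and they share a mesenchymal origin with tenocytes, the cells of tendon. Pericytes and vascular smooth muscle cells, together called mural cells, wrap blood vessels, and satellite cells are the stem cells that make new muscle fibres. In the embryo, T-box, Twist, Osr and Prrx factors are expressed in limb and body wall mesenchyme, where they help to set the identity and position of connective tissue. Tcf7l2, also called Tcf4, is an effector of Wnt signalling and a classic marker of muscle connective tissue fibroblasts. Osr1 marks embryonic fibro-adipogenic progenitors, and an enhancer of Prrx1 drives a Cre line widely used to label limb mesenchyme.

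In total 118872850 UMIs were counted over 13299 barcodes for the chimera, and 70957559 over 10117 for the SD rat. Filters and removal of predicted doublets left 11746 and 8812 cells at medians of 7866.5 and 6265 UMIs, of which 33 barcode sequences occurred in both libraries. A chimera cell was called rat with at most 20% of its UMIs on mouse genes (8241 cells) and mouse with at least 80% (1849 cells), and the 1656 cells between were not assigned. The SD rat reads were mapped to rat genes alone, so reads of rat RNA could be counted on a mouse gene in the chimera but not in the SD rat. Classes were clusters named from marker genes, and the 9 factors were left out of the genes used for clustering. FAP-like cells numbered 3191 in the SD rat, 2642 among chimera rat cells and 125 among chimera mouse cells, and tenocyte-like cells 559, 587 and 39. Satellite cell-like cells (MP-like in the plots) numbered 307 and 317 in the SD rat and the chimera rat cells. Mural-like cells were 386 pericyte-like cells in the SD rat, and 248 pericyte-like and 99 vascular smooth muscle-like cells among chimera rat cells. No mouse cluster was named mural-like or satellite cell-like, and 47 mouse cells formed an unnamed cluster in which all 12 satellite cell markers were raised. Its leading genes included Acta2, Tagln and the differentiation factor Myog. Tagln was also a leading gene of the satellite cell-like clusters of the SD rat and the chimera rat cells. The classes carried their defining markers. Pdgfra, a FAP receptor, stood at 256 counts per 1000000 UMIs of the class (CPM) in FAP-like and 21.7 in tenocyte-like cells of the SD rat, and Tnmd, a tendon gene, at 18.4 and 2790. In the unnamed mouse cluster the satellite cell factor Pax7 stood at 267 CPM and Myog at 467. Satellite cell-like cells held them at 146 and 23.0 CPM in the SD rat and at 78.6 and 32.6 in chimera rat cells.

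Levels are given as CPM with exact Poisson 95% intervals, which cover counting error only and neither cell sampling nor differences between animals. With 1 library per group no test was possible, and a gene is called higher or lower when its 2 CPM values differ by at least 2-fold after 1 CPM is added to each and the 2 sums hold at least 50 UMIs. Because the method counts transcripts from their 3′ ends, levels are compared between cell classes for 1 gene and not between genes.

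**Figure D1:**
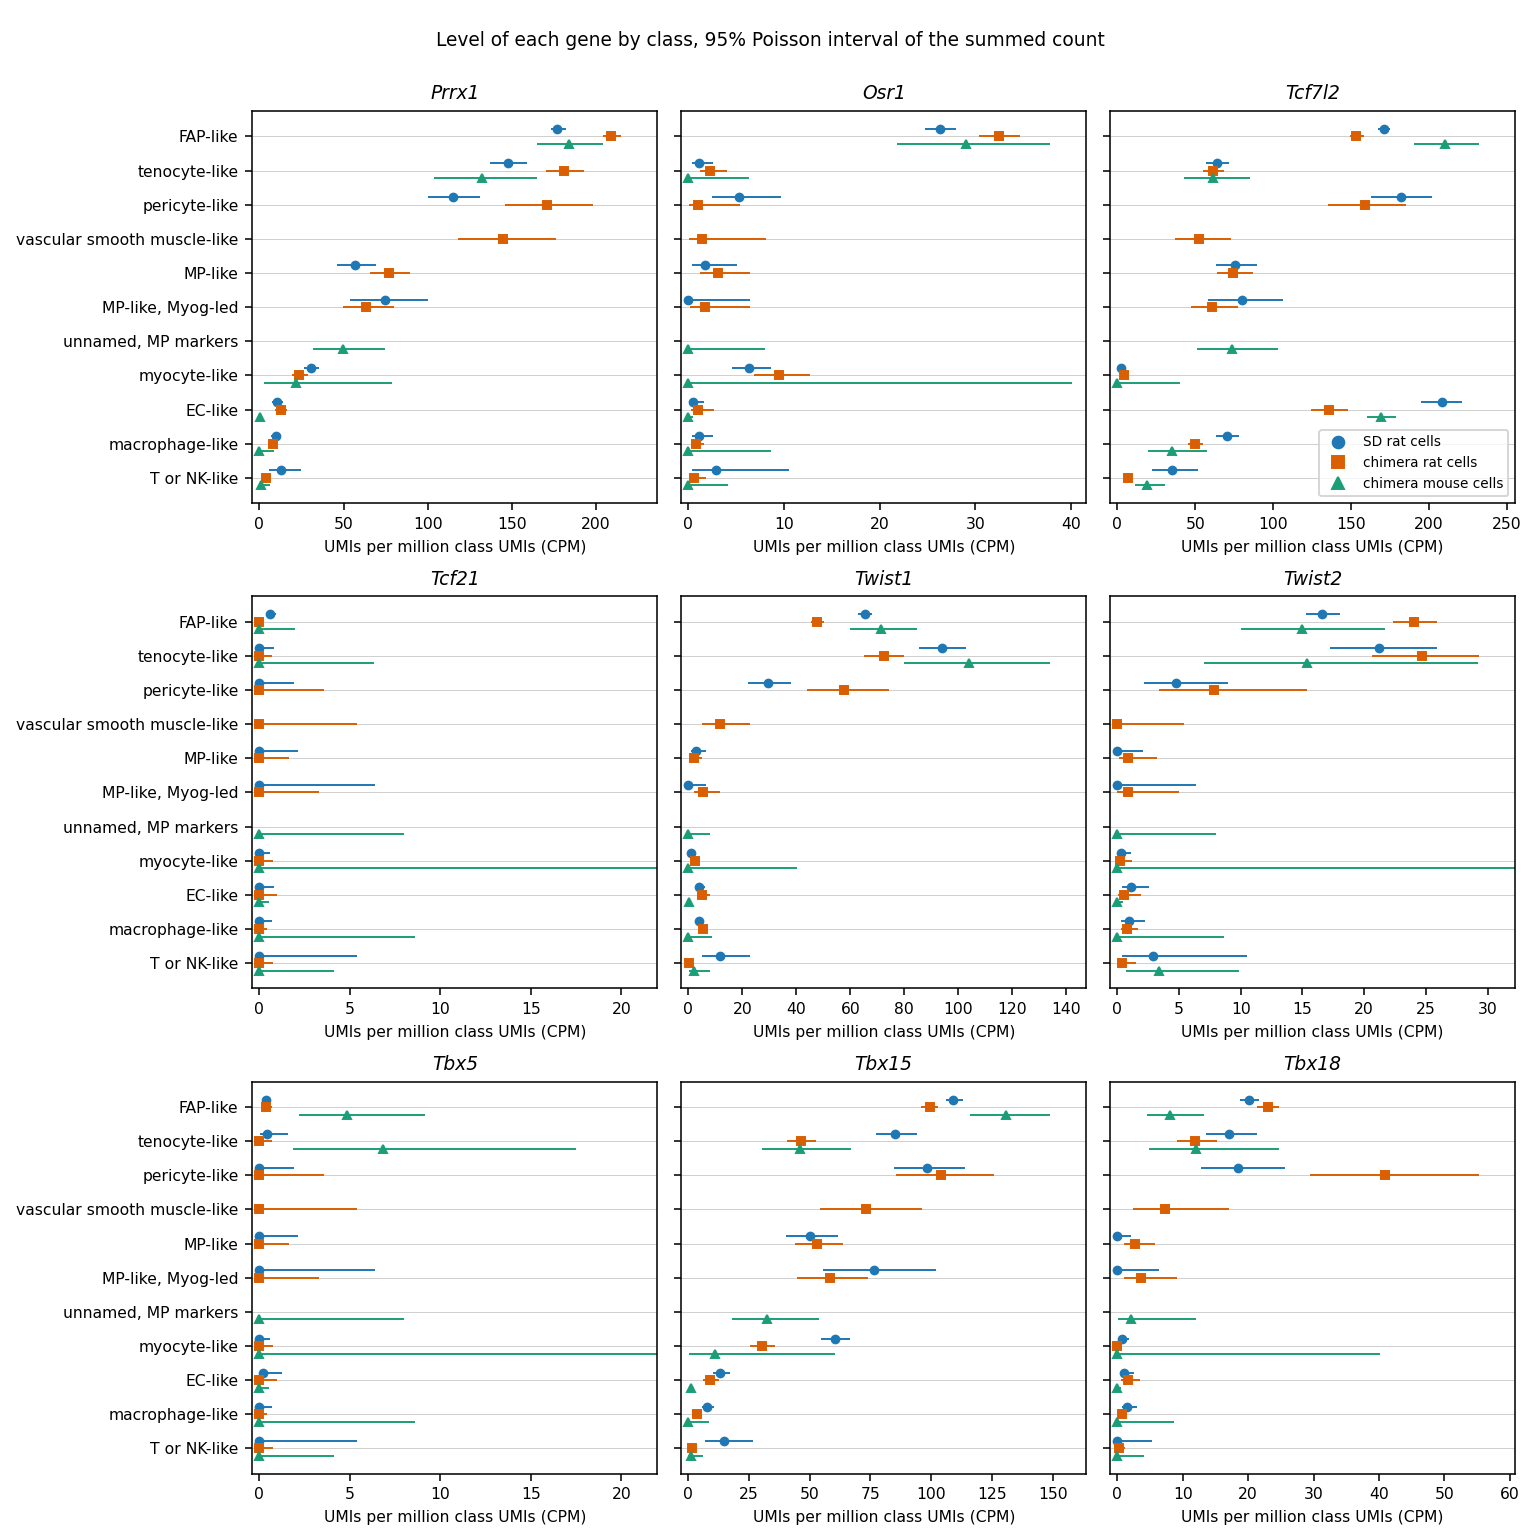
Level of each of the 9 genes (horizontal axis, CPM, a scale of its own in each panel) by cell class (vertical axis) in SD rat cells, chimera rat cells and chimera mouse cells; points are summed counts and bars their Poisson 95% intervals, cut at the panel edge in a few classes with few UMIs. Osr1 stood at 26.3, 32.5 and 29.0 CPM in the 3 sets of FAP-like cells and under 10 CPM in the other classes drawn, Prrx1 and Tbx15 reached into mural-like and satellite cell-like cells, and Tcf7l2 in endothelial (EC-like) cells lay within 2-fold of FAP-like cells in all 3 sets.

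Of the 9 genes, 7 were higher in FAP-like than in satellite cell-like cells of the SD rat, none was lower, and Tcf21 and Tbx5 had under 50 UMIs. Across all genes tested, 16.9% were higher in the same comparison. In chimera rat cells 6 of the 9 were higher, against 18.8% of all genes, and Tbx15 missed 2-fold with a log2 ratio of 0.89 (0.64 to 1.18). The median log2 ratio of the 7 counted genes was 3.32 in the SD rat (3.26 with genes at 0 set to their lower bound) beside -0.18 for all genes, and 2.70 beside -0.06 in the chimera rat cells. In satellite cell-like cells Osr1, Twist1, Twist2 and Tbx18 held at most 7 UMIs each in either library, while Prrx1, Tbx15 and Tcf7l2 held 87 to 172.

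Osr1, a zinc finger factor of embryonic connective tissue, had its highest level in FAP-like cells among the classes plotted. It stood at 26.3 CPM (24.7 to 28.0) in SD rat, 32.5 (30.4 to 34.6) in chimera rat and 29.0 (21.8 to 37.8) in chimera mouse FAP-like cells. Tenocyte-like cells held 5 UMIs (1.09 CPM) in the SD rat, 12 UMIs (2.30 CPM) in the chimera rat cells and 0 in the mouse cells, where 3 counts would be 5.13 CPM. The gap between FAP-like and tenocyte-like cells was thus present in all 3 sets, at log2 ratios of 3.70 (3.36 to 6.21) and 3.34 (3.01 to 4.78) in the rat cells and at least 5.65-fold in the mouse cells. Satellite cell-like cells were as low, at 1.73 CPM (3 UMIs) and 3.12 CPM (7 UMIs), and the intervals of tenocyte-like, satellite cell-like and EC-like cells overlapped in both libraries. The second level in order was that of myocyte-like cells, at 6.39 CPM (4.61 to 8.64) and 9.47 CPM (6.91 to 12.7), although these cells held Dcn, a fibroblast gene, at 1.14% and 0.949% of the FAP-like level. The share of FAP-like cells with an Osr1 UMI was 17.5% in the SD rat and 19.9% in chimera rat cells, at medians of 10916 and 10603.5 UMIs. Of the T or NK-like cells, which should lack the gene and had medians of 6537 and 6795 UMIs, 1 of 95 and 3 of 669 held one.

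Prrx1, a homeobox factor of limb mesenchyme, declined in steps from FAP-like cells. In the SD rat it stood at 177 CPM (173 to 182) in FAP-like, 148 (137 to 159) in tenocyte-like, 115 (100 to 131) in pericyte-like and 57.0 (46.3 to 69.4) in satellite cell-like cells. Chimera rat cells had the same order, at 209 (204 to 215), 181 (170 to 193), 171 (146 to 198) and 76.8 (65.7 to 89.2), with overlapping intervals for tenocyte-like and pericyte-like cells. In mouse cells Prrx1 stood at 184 CPM (165 to 204) in FAP-like cells, 132 (104 to 165) in tenocyte-like cells and 49.9 (31.7 to 74.9) in the unnamed cluster with satellite cell markers. EC-like cells were at 10.4 CPM in the SD rat, 12.6 in chimera rat cells and 0.412 (3 UMIs in 1083 cells) in mouse cells, which held another 31 Prrx1 UMIs on the rat gene. With predicted doublets kept, the rat EC-like values were 31.1 and 24.0 CPM. A Prrx1 UMI was found in 69.2% of FAP-like, 24.8% of satellite cell-like and 1.95% of EC-like cells of the SD rat, at medians of 10916, 5704 and 1893 UMIs. Thinned to 1000 UMIs per cell, with cells under 1000 UMIs left out, the shares were 14.1% (12.9 to 15.3), 4.95% (2.80 to 8.03) and 0.723% (0.313 to 1.42), in the same order. The EC-like class of the SD rat includes a cluster of 395 cells with a median of 692 UMIs, so its thinned share rests on part of the class. The thinned shares of chimera rat cells were 16.8%, 7.67% (4.97 to 11.2) and 1.22% (0.528 to 2.39).

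Tbx15, a T-box factor needed for skeletal and muscle development, reached furthest among the T-box genes. It stood at 109 CPM (106 to 113) in FAP-like, 98.4 (84.8 to 114) in pericyte-like, 85.3 (77.1 to 94.2) in tenocyte-like, 60.3 (54.5 to 66.5) in myocyte-like and 50.1 (40.1 to 61.8) in satellite cell-like cells of the SD rat. Neighbours in this order overlapped in their intervals except tenocyte-like and myocyte-like cells. In chimera rat cells the levels were 99.5 CPM in FAP-like, 104 in pericyte-like, 73.1 in vascular smooth muscle-like, 53.1 in satellite cell-like, 46.3 in tenocyte-like and 30.3 in myocyte-like cells. Mouse cells had 131 CPM (116 to 149) in FAP-like, 46.2 in tenocyte-like and 32.6 in the unnamed cluster. EC-like cells were lowest among these classes, at 13.2, 8.94 and 1.1 CPM.

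Tcf7l2 did not follow the other factors. In the SD rat it was highest in EC-like cells at 208 CPM (195 to 221), followed by pericyte-like cells at 182 (163 to 202) and FAP-like cells at 171 (167 to 175), and each interval overlapped the next. Satellite cell-like cells held 75.5 CPM, tenocyte-like cells 64.1 and myocyte-like cells 2.28, and macrophage-like and Schwann or glial-like cells held 70.5 and 108. Chimera rat cells had 153 CPM in FAP-like, 159 in pericyte-like and 136 in EC-like cells, and 61.2 in tenocyte-like cells. Among mouse cells it stood at 210.0 CPM in FAP-like, 169 in EC-like and 61.6 in tenocyte-like cells. Neutrophil or monocyte-like cells of the chimera rat were as high, at 164 CPM (148 to 182). The SD rat class of that name, 32 cells, held 0 Tcf7l2 UMIs. The 2 classes may not hold the same cells, since an SD rat cluster of 119 cells was named macrophage-like on a score of 2.347 beside 2.243 for neutrophil or monocyte markers. At the level of RNA, FAP-like and EC-like cells thus lay within 2-fold of each other in all 3 sets, while tenocyte-like cells were more than 2-fold lower than FAP-like cells in each.

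Against EC-like cells, 6 of the 9 genes were higher in FAP-like cells in the SD rat (15.4% of all genes tested) and 6 in chimera rat cells (15.7%), and in mouse cells 4 of the 5 with at least 50 UMIs were higher (14.8%). Tcf7l2 was the counted gene that did not differ by 2-fold, with log2 ratios of -0.28 in the SD rat, 0.17 in chimera rat cells and 0.31 in mouse cells. In satellite cell-like cells, 2 of the 3 genes with enough UMIs were higher than in EC-like cells in each library, where 13.8% of all genes were higher in the SD rat and 12.5% in the chimera rat cells. These were Prrx1, with log2 ratios of 2.35 (1.95 to 2.99) and 2.51 (2.14 to 3.10), and Tbx15, with 1.84 (1.43 to 2.42) and 2.45 (2.01 to 3.17). Tcf7l2 was lower in satellite cell-like than in EC-like cells of the SD rat, with a log2 ratio of -1.45 (-1.74 to -1.20), and stood at -0.86 in the chimera rat cells. The SD rat calls of Prrx1 and Tbx15 against EC-like cells rest on the removal of predicted doublets: with doublets kept, an alternative chosen after seeing the data, the ratios were 0.85 (0.50 to 1.24) and 0.87 (0.50 to 1.28), under 2-fold. For the chimera they were 1.6 and 1.47, still past it, and the 6 factors higher in FAP-like than in EC-like cells were so with doublets kept in both libraries.

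Levels in satellite cell-like cells were set against a measure of fibroblast RNA. Prrx1, Tbx15 and Tcf7l2 stood at 32.1%, 45.9% and 44.1% of their FAP-like level in satellite cell-like cells of the SD rat, where the fibroblast genes Dcn and Col3a1 stood at 1.81% and 3.61%. In the chimera rat cells they stood at 36.7%, 53.4% and 48.6%, beside 2.27% and 2.96% for Dcn and Col3a1. The 3 factors thus stood well above the fibroblast genes when each was set against its own FAP-like level. Osr1, Twist1, Twist2 and Tbx18 were lower, and in the SD rat satellite cell-like cells held no UMI of Twist2 or Tbx18 (3 counts would be 1.73 CPM), which puts FAP-like cells at least 9.6-fold and at least 11.7-fold higher. Twist1 was at 2.88 CPM (5 UMIs) and 2.23 CPM (5 UMIs) in the 2 libraries. Mural-like cells likewise held Prrx1 at 64.9% and 76.5% and Tbx15 at 90.1% and 92.2% of the FAP-like level, beside 8.1% and 7.1% for Dcn. In EC-like cells, where Dcn stood at 3.82% and 3.27%, Prrx1 stood at 5.84% and 6.03%, Tbx15 at 12.1% and 8.98% and Tcf7l2 at 121% and 88.7% of the FAP-like level. With doublets kept, the EC-like values of the SD rat moved from 10.4 to 31.1 CPM for Prrx1, from 13.2 to 27.6 for Tbx15 and from 3.97 to 14.6 for Twist1. T or NK-like cells held Prrx1 at 7.38% and 1.79% beside Dcn at 7.37% and 0.891%. Osr1 reached 24.3% and 29.2% of its FAP-like level in myocyte-like cells but 4.16% and 7.07% in tenocyte-like cells.

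**Figure D2:**
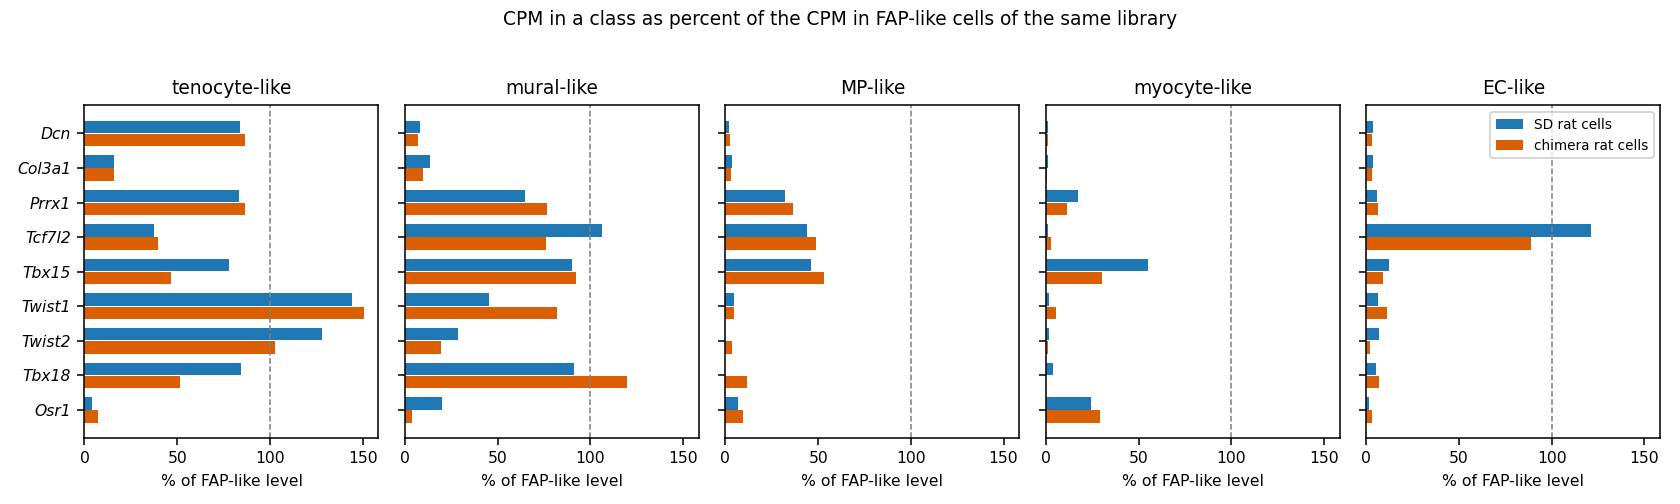
CPM of 7 of the factors and of the fibroblast genes Dcn and Col3a1 in 5 classes, as percent of the CPM in FAP-like cells of the same library (horizontal axis; the dashed line marks 100%), for SD rat and chimera rat cells. In satellite cell-like (MP-like) cells Prrx1, Tcf7l2 and Tbx15 stood at 32.1% to 53.4% while Dcn stood at 1.81% and 2.27%.

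The clusters led by Myog, which hold satellite cell markers and the differentiation factor Myog, numbered 53 cells in the SD rat and 90 among chimera rat cells. None of the 3 factors with enough UMIs differed by 2-fold between these and satellite cell-like cells in either library, where 23.1% of all genes in the SD rat and 18.3% in the chimera rat cells did. Prrx1 stood at 74.6 and 63.6 CPM, Tcf7l2 at 79.8 and 60.9, and Tbx15 at 76.3 and 58.2. Cycling satellite cell-like cells, 116 in the SD rat and 57 in the chimera, held Prrx1 at 97.9 and 83.3 CPM. The name of the SD rat cluster was a near tie, with 10 satellite cell markers raised (score 1.812) and 11 FAP markers (score 1.793), and it held Dcn at 31.0% of the FAP-like level. Myocyte-like cells, by comparison, held Tcf7l2 at 2.28 and 4.21 CPM but still Tbx15 at 60.3 and 30.3 CPM.

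Twist1 and Twist2 are closely related basic helix-loop-helix factors that hold mesenchymal and myogenic progenitors back from differentiation. Both were as high in tenocyte-like cells as in FAP-like cells or higher. Twist1 stood at 65.4 CPM (62.7 to 68.0) in FAP-like and 94.1 (85.4 to 103) in tenocyte-like cells of the SD rat, at 47.8 (45.3 to 50.4) and 72.3 in chimera rat cells, and at 71.4 and 104 in mouse cells. The log2 ratio of FAP-like over tenocyte-like cells was -0.52 (-0.67 to -0.37), -0.59 (-0.76 to -0.43) and -0.54 (-1.0 to -0.09) in the 3 sets, on the same side in each but under 2-fold. Twist2 stood at 16.6 and 21.2 CPM in the SD rat, 24.0 and 24.7 in chimera rat cells and 15 and 15.4 in mouse cells. In pericyte-like cells Twist1 was at 29.5 CPM (22.2 to 38.2) in the SD rat and 57.5 (43.8 to 74.2) in chimera rat cells, and Twist2 at 4.73 and 7.80.

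Between FAP-like and tenocyte-like cells, 2 of the 9 genes were higher in FAP-like cells of the SD rat (9.31% of all genes), 3 in chimera rat cells (10.8%) and 3 in mouse cells (17.8%). Osr1 and Tcf7l2 were higher in all 3 sets, Tcf7l2 with log2 ratios of 1.4 (1.25 to 1.59), 1.31 (1.16 to 1.49) and 1.76 (1.28 to 2.31). Tbx15 was higher in chimera rat cells (1.09, 0.91 to 1.30) and mouse cells (1.49, 0.93 to 2.14) but stood at 0.35 (0.21 to 0.51) in the SD rat. No gene was called higher in tenocyte-like cells. The tenocyte-like rat cells fell into a cluster led by Kera and Fmod and one led by Emb in the SD rat and by Tnmd in chimera rat cells. Tnmd was among the leading genes of both clusters in each library. In the second cluster Prrx1 stood above its level in the first, by under 2-fold, in both libraries. Its levels were 206 CPM (182 to 232) beside 124 (113 to 137) in the SD rat and 250.0 (228 to 275) beside 146 (133 to 159) in the chimera rat cells. Twist1 had the same order, also within 2-fold, at 118 beside 84.4 CPM and 89.1 beside 63.7 CPM.

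Between FAP-like and mural-like cells, 3 of the 9 genes were higher in FAP-like cells of the SD rat (10.2% of all genes) and 2 in chimera rat cells (14.0%). Osr1 and Twist2 were higher in both, with log2 ratios of 2.13 and 1.62 in the SD rat and 3.95 (on 2 mural-like UMIs, 2.94 to 7.84) and 2.14 in chimera rat cells. Twist1 was higher in the SD rat at 1.12 (0.77 to 1.56) and stood at 0.28 (-0.07 to 0.66) in chimera rat cells. The mural-like cells of the 2 libraries were not alike in their markers. The SD rat pericyte-like cluster held 10 endothelial markers at a summed 6070 CPM, Cdh5 at 407 and Fabp4 at 3660 CPM, while in the pericyte-like cluster of chimera rat cells the sum was 1390 CPM, with Cdh5 at 10.7 CPM. A chimera rat cluster of 73 cells with 10 pericyte and 10 endothelial markers raised was left unnamed and entered no mural-like class. The SD rat cluster, with 10 and 9 raised, was named pericyte-like. The part of the endothelial markers and of this naming in the mural values was not tested.

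Within the mural cells of the chimera, pericyte-like and vascular smooth muscle-like clusters could be compared. Of the 4 factors with at least 50 UMIs, 2 were higher in pericyte-like cells, where 14.8% of all genes were. Tcf7l2 stood at 159 CPM in pericyte-like and 52.6 in vascular smooth muscle-like cells (log2 ratio 1.58, 1.07 to 2.16), and Twist1 at 57.5 and 11.7 (2.20, 1.23 to 3.57). Prrx1 and Tbx15 were closer, at 171 and 145 CPM and at 104 and 73.1 CPM. Tbx18, a T-box factor known from the heart and ureter and used to trace pericytes and smooth muscle cells, held 42 UMIs (40.9 CPM, 29.5 to 55.3) in pericyte-like and 5 UMIs (7.31 CPM, 2.37 to 17.1) in vascular smooth muscle-like cells, too few to be called. Twist2 held 8 and 0 UMIs, and 3 counts would be 4.38 CPM in the second class.

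Tbx18 was not particular to pericyte-like cells. It stood at 20.2 CPM (18.8 to 21.7) in FAP-like, 18.4 (12.8 to 25.6) in pericyte-like and 17.1 (13.5 to 21.3) in tenocyte-like cells of the SD rat, with all 3 intervals overlapping. In chimera rat cells pericyte-like cells were first, at 40.9 CPM (29.5 to 55.3) beside 23.0 (21.3 to 24.8) in FAP-like and 11.9 (9.09 to 15.2) in tenocyte-like cells. These intervals did not overlap. Satellite cell-like cells held 0 and 6 UMIs, and EC-like cells 5 and 6.

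Tcf21 and Tbx5 were near the limit of detection. Tcf21, a basic helix-loop-helix factor of fibroblasts in heart, kidney and lung, had 22 UMIs in the SD rat. All 22 were in 7 cells of the FAP-like cluster led by Sfrp4 and Col3a1 (922 cells), with up to 6 UMIs in 1 cell, whereas the other FAP-like clusters held none. Chimera rat cells held 0 UMIs on the rat gene, where 3 counts would be 0.103 CPM in FAP-like cells, and 6 UMIs in 2 cells on the mouse gene, and mouse cells held 0 on the mouse gene. Tbx5, which marks the forelimb and heart in the embryo, had 18 UMIs in 16 SD rat cells, of which 13 UMIs were in FAP-like cells. On the rat gene it had 11 UMIs in 10 chimera rat cells, all FAP-like. Chimera rat cells held another 10 UMIs in 10 cells on the mouse gene, of which 8 UMIs were in FAP-like cells. Mouse cells held 13 Tbx5 UMIs in 10 cells, of which 9 UMIs were in FAP-like and 4 in tenocyte-like cells. As CPM on the gene of the cells' own species, Tbx5 stood at 0.359 and 0.379 in rat FAP-like cells and at 4.83 in mouse FAP-like cells. These counts are too low to be called, and the chimera rat value leaves out the UMIs on the mouse gene.

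FAP-like cells were not uniform in these factors, and for Osr1 and Twist2 the order of 3 sets of them was alike in the 2 libraries. In SD rat and chimera rat cells Osr1 was highest in the cluster led by Sfrp4 and Col3a1, at 42.5 CPM (38.7 to 46.5) and 47.2 (43.1 to 51.6). The Pi16 Mfap5 subtype, a fibroblast state known from adventitia and fascia, held 30.7 (26.4 to 35.4) and 38.5 CPM (33.5 to 44.1), and the Smoc2 Cxcl14 subtype 13.9 and 18.8 CPM. Twist2 had the same order, at 28.2, 17.2 and 8.53 CPM in the SD rat and 34.1, 23.6 and 15.4 in the chimera rat cells. Tbx15 had the opposite one in the SD rat, at 81.8, 99.6 and 136 CPM with intervals apart. It stood at 93.6, 97.0 and 107 in the chimera rat cells, where each interval overlapped the next. Prrx1 varied less over these 3 sets of cells, from 165 to 195 and from 194 to 235 CPM. In chimera rat cells the Smoc2 Cxcl14 subtype includes a cluster of 214 cells led by haemoglobin genes. Tbx15 stood there at 56.6 CPM and Prrx1 at 103, which lowers the values of the subtype. The Sfrp4-led clusters of the 2 libraries may not hold the same cells. That of the chimera rat cells had Myoc and Prg4 among its leading genes and raised 6 markers of each of the Pi16 Mfap5 and Myoc Sfrp4 Prg4 lists. In the SD rat, Prg4 and Myoc led a cluster of 519 cells, the Myoc Sfrp4 Prg4 subtype. This subtype, whose name no chimera rat cluster took, held Twist1 at 81.4 CPM (74.0 to 89.4), Tcf7l2 at 214 and Osr1 at 21.0 CPM. At clustering resolution 2, Osr1 stood at 38.4 and Twist2 at 18.0 in place of 10.2 CPM in this subtype.

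Between the Pi16 Mfap5 and the Smoc2 Cxcl14 subtype, 1 of the 9 genes was higher in the first in the SD rat (4.51% of all genes) and none in chimera rat cells (4.50%). This gene was Osr1, with a log2 ratio of 1.08 (0.83 to 1.44) in the SD rat, and it stood just under the limit at 1.00 (0.76 to 1.31) in chimera rat cells. Twist2 followed at 0.93 (0.61 to 1.41) and 0.59 (0.28 to 0.95). Tbx15 was on the other side, at -0.44 (-0.58 to -0.31) and -0.14 (-0.29 to 0.00). The FAP-like clusters were defined in the same cells, so their differences are a description.

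**Figure D3:**
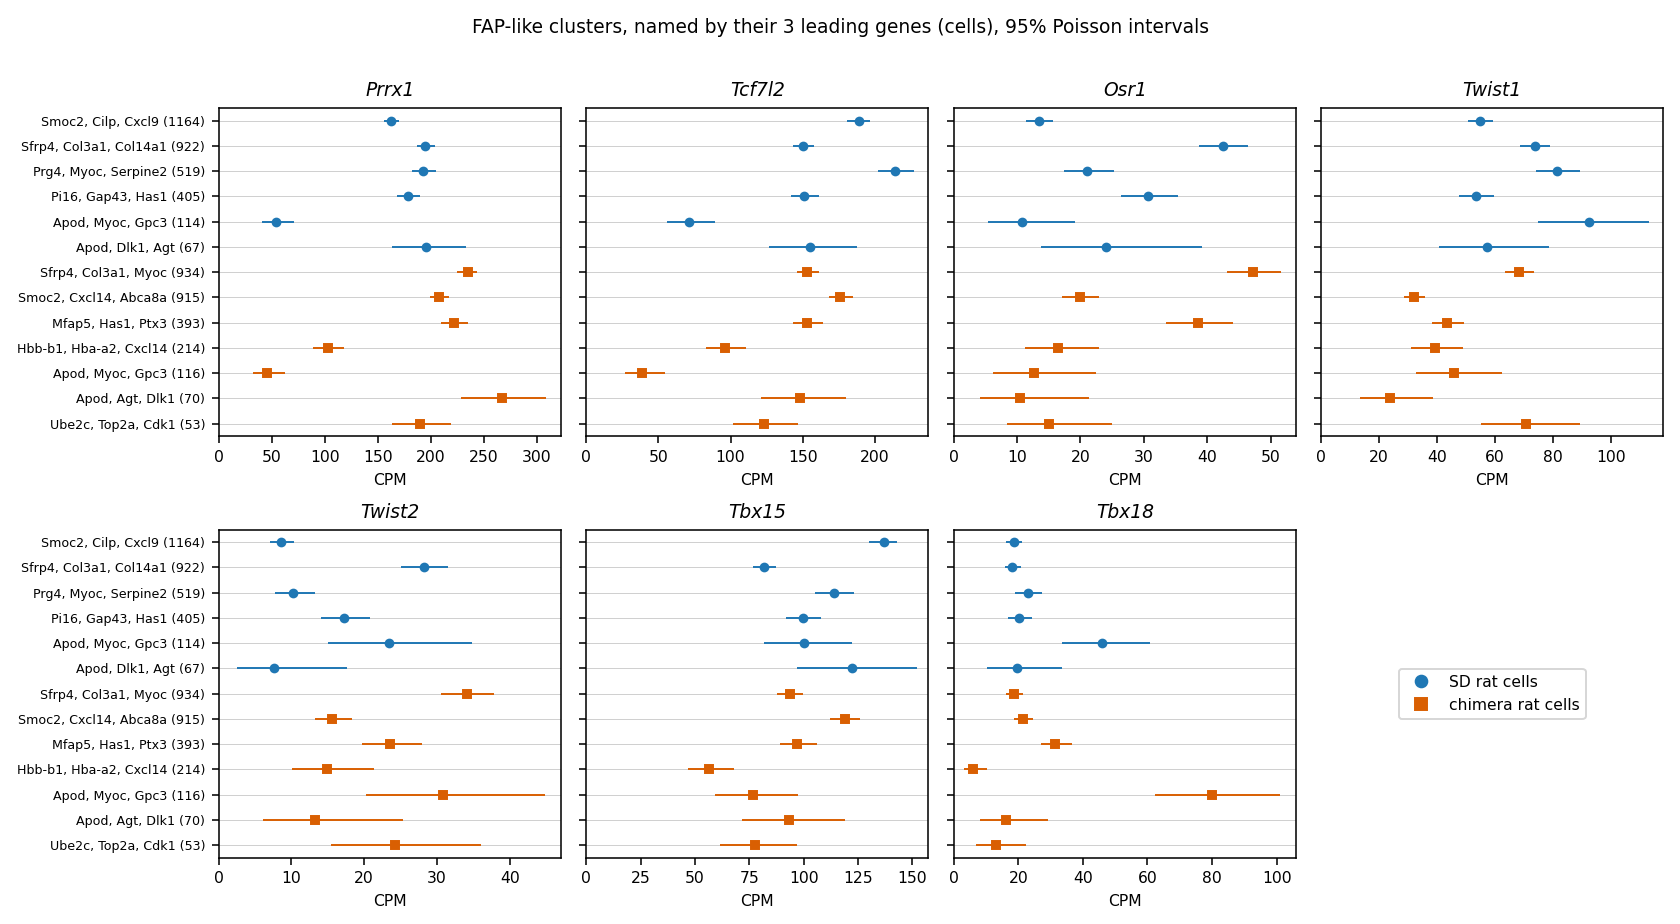
Level in CPM (horizontal axis, a scale of its own in each panel) of 7 factors in each FAP-like cluster of SD rat and chimera rat cells, named by its 3 leading genes with its number of cells; bars are Poisson 95% intervals. Osr1 and Twist2 were highest or near highest in the clusters led by Sfrp4, and the small cluster led by Apod, Myoc and Gpc3 was low in Prrx1 and Tcf7l2 and high in Tbx18 in both libraries.

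A small FAP-like cluster led by Apod, Myoc, Gpc3 and Tenm2 was set apart in both libraries, with 114 SD rat cells and 116 chimera rat cells. It was singled out after its values were seen. Prrx1 stood there at 54.5 CPM (41.2 to 70.8), against 163 to 196 in the 5 other FAP-like clusters of the SD rat, and at 45.7 CPM (32.7 to 62.3), against 103 to 267 in the 5 others of the chimera rat cells that were not cycling. Tcf7l2 was likewise low, at 71.1 CPM against 150.0 to 214 and at 38.9 CPM against 96.4 to 176. Tbx18 was high, at 45.8 CPM (33.6 to 60.9) against 18.2 to 22.9 and at 80 CPM (62.4 to 101) against 5.96 to 31.4, while Tbx15 stood within the range of the others. The cluster's second marker list by score was that of perineurial cells, the sheath of nerves, of which it raised 4 markers beside 13 and 14 FAP markers in the 2 libraries. Another chimera rat cluster of 214 FAP-like cells, which is part of the Smoc2 Cxcl14 subtype, was led by the haemoglobin genes Hbb-b1 and Hba-a2. It held lower levels of several factors, with Prrx1 at 103 CPM, Tbx15 at 56.6 and Tbx18 at 5.96. The part of blood RNA in these values, or in those of the subtype, was not tested.

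The balance of the 2 Twist genes was read as the share of Twist1 among Twist1 and Twist2 UMIs together. This share was 79.8% (exact binomial 95% interval 78.3 to 81.2) in SD rat FAP-like cells, 66.5% (64.5 to 68.6) in chimera rat and 82.6% (75.9 to 88.1) in chimera mouse FAP-like cells. Because 3′ counts differ in efficiency between genes, the share itself does not give the ratio of transcripts, but it can be compared between classes of 1 species. Rat and mouse shares come from different gene annotations. In chimera rat FAP-like cells 7.66% of Twist1 and 1.69% of Twist2 UMIs lay on the mouse gene and are not in the share. Within the SD rat it ran from 72.3% (69.6 to 74.9) in the Sfrp4-led cluster and 75.7% (71.3 to 79.7) in the Pi16 Mfap5 subtype to 86.5% (84.0 to 88.8) in the Smoc2 Cxcl14 and 88.8% (85.7 to 91.4) in the Myoc Sfrp4 Prg4 subtype. In chimera rat cells the Sfrp4-led cluster (66.7%), the Pi16 Mfap5 subtype (64.9%) and the Smoc2 Cxcl14 subtype (68.1%) overlapped in their intervals. The Sfrp4-led clusters of the 2 libraries may not hold the same cells, and no chimera rat cluster was named Myoc Sfrp4 Prg4. Tenocyte-like cells stood at 81.6% (78.0 to 84.8) and 74.6% (70.5 to 78.3). In both libraries the cluster led by Emb or Tnmd was above the one led by Kera or Fmod. The shares were 87.6% (81.8 to 92.0) beside 78.6% (73.9 to 82.8) in the SD rat, which overlap, and 82.3% (76.1 to 87.4) beside 69.8% (64.4 to 74.9) in chimera rat cells, which do not.

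**Figure D4:**
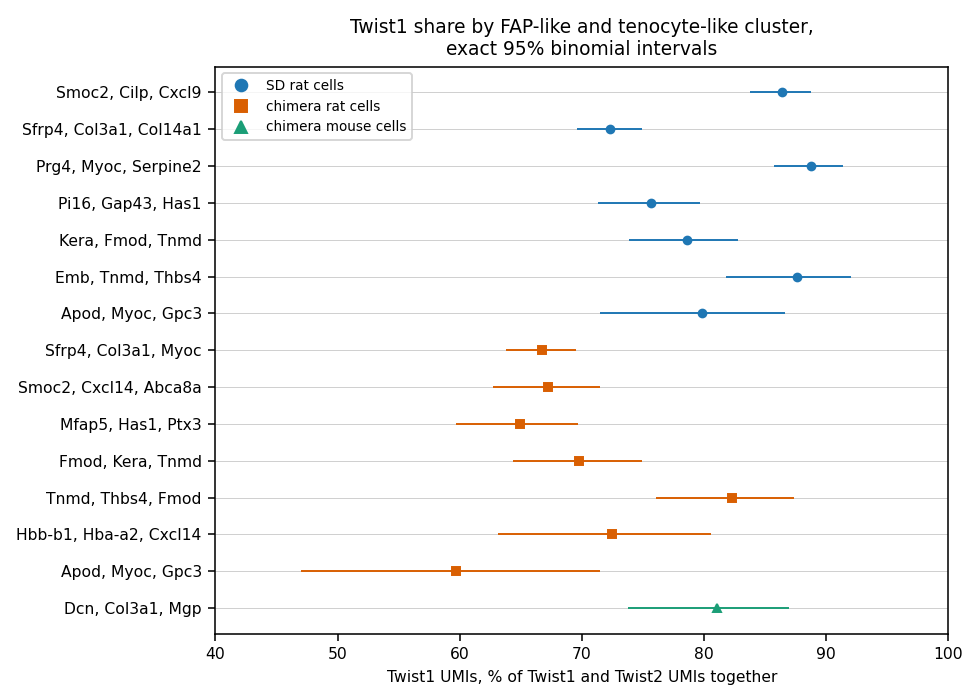
Twist1 UMIs as percent of Twist1 and Twist2 UMIs together (horizontal axis, from 40% to 100%) in FAP-like and tenocyte-like clusters, named by their 3 leading genes, of SD rat, chimera rat and chimera mouse cells; bars are exact binomial 95% intervals. The SD rat FAP-like clusters drawn spread from 72.3% to 88.8% and those of chimera rat cells from 59.7% to 72.5%. The 3 largest chimera rat FAP-like clusters lay between 64.9% and 67.2%.

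The question of how the rat cells of a chimera compare with those of a rat was asked of each class. No factor differed by 2-fold between chimera rat and SD rat cells in FAP-like cells (2.39% of all genes did), the Pi16 Mfap5 subtype (3.08%) or the Smoc2 Cxcl14 subtype (2.95%). Nor did any in tenocyte-like (3.40%), mural-like (12.0%), satellite cell-like (3.38%) or Myog-led cells (6.87%). The number of factors with at least 50 UMIs ranged from 3 in satellite cell-like and Myog-led cells to 7 in FAP-like cells. In FAP-like cells the log2 ratios of chimera rat to SD rat ran from -0.44 (-0.55 to -0.35) for Twist1 to 0.51 (0.38 to 0.70) for Twist2, so that the 2 Twist genes stood at opposite ends. Prrx1 was at 0.24 (0.19 to 0.29), Osr1 at 0.29, Tbx18 at 0.18, Tbx15 at -0.13 and Tcf7l2 at -0.16, beside a median of 0.07 over all genes. In the Smoc2 Cxcl14 subtype the Twist genes lay further apart, at -0.73 (-0.93 to -0.57) and 0.78 (0.50 to 1.20). The chimera rat side of this subtype includes the cluster led by haemoglobin genes. Intervals that leave out 0 here cover counting only, and with 1 animal on each side the animal, digestion and library cannot be told apart from the chimera.

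The largest difference of a factor in tenocyte-like cells was that of Tbx15, at 46.3 CPM (40.6 to 52.5) in chimera rat and 85.3 (77.1 to 94.2) in SD rat cells, a log2 ratio of -0.87 (-1.12 to -0.65). This ratio was measured on rat genes, and 27.2% of the Tbx15 UMIs of chimera rat cells lay on the mouse gene. With rat and mouse genes summed in the chimera rat cells, the ratio in tenocyte-like cells was -0.73 (-0.96 to -0.52), while that in FAP-like cells moved from -0.13 to 0.09 (0.03 to 0.16). In the same way Twist1 moved from -0.44 to -0.51 and Twist2 from 0.51 to 0.36 in FAP-like cells, and both kept their sign. Tcf7l2 stood at -0.64 (-0.90 to -0.39) in mural-like cells, under 2-fold, where the SD rat class held no vascular smooth muscle-like cluster. Over 10% of UMIs lay on mouse genes in 533 of 587 tenocyte-like and 2123 of 2642 FAP-like chimera rat cells. With rat cells called at 10% in place of 20%, those cells are left out. On the smaller part that remains, Tbx15 in tenocyte-like cells (-1.31) passed 2-fold, as did Twist2 in the Smoc2 Cxcl14 subtype. In mural-like cells Tcf7l2 (-1.43) and Tbx15 (-1.12) passed it too and Prrx1 moved from 0.47 to -0.82, but at this limit the chimera rat class was 53 vascular smooth muscle-like cells with no pericyte-like cluster, set against SD rat pericyte-like cells.

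**Figure D5:**
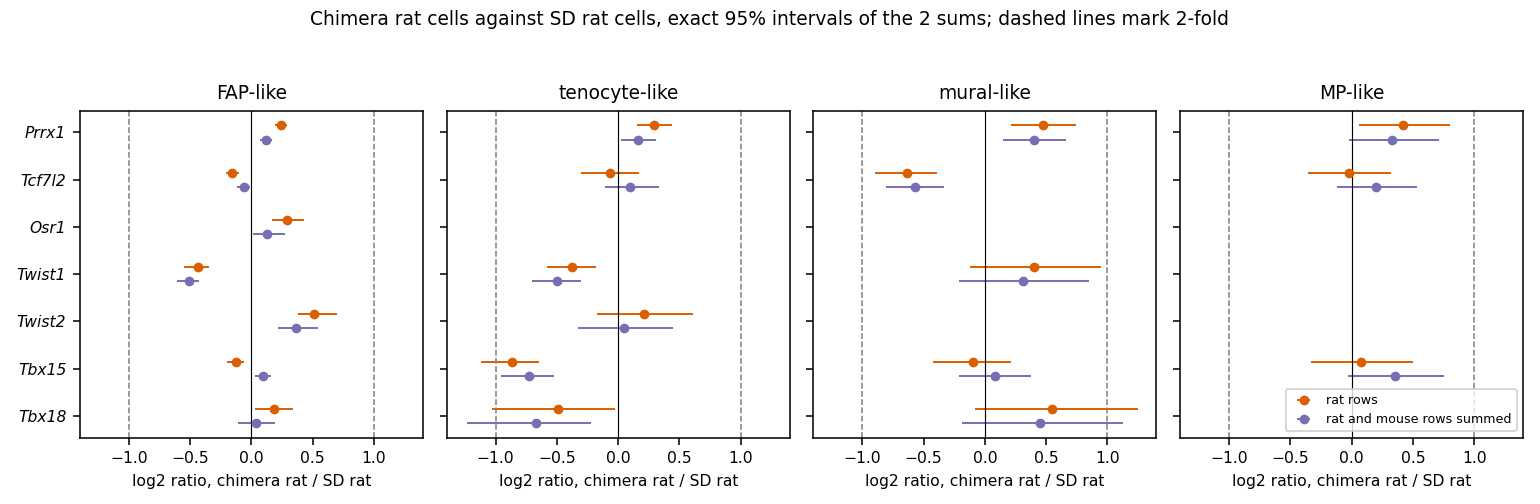
Log2 ratio of chimera rat to SD rat CPM (horizontal axis; 0 is no difference and dashed lines mark 2-fold) of 7 factors in 4 classes, with exact 95% intervals from the 2 sums of UMIs, on rat genes alone and with rat and mouse genes summed in chimera rat cells. Sums under 50 UMIs are left out, and no point lies past 2-fold; Twist1 at -0.44 and Twist2 at 0.51 in FAP-like cells, and Tbx15 at -0.87 in tenocyte-like cells, lie furthest from 0 in these classes.

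The share of a gene's UMIs on the mouse gene in chimera rat cells differed widely between the factors. It was 27.2% (26.0 to 28.4) for Tbx15 and 18.8% (18.0 to 19.6) for Tcf7l2, but 7.15% for Twist1, 4.57% for Prrx1, 2.47% for Tbx18, 2.31% for Twist2 and 1.4% for Osr1. For Tbx5 it was 47.6% (25.7 to 70.2), on 11 UMIs on the rat and 10 on the mouse gene. Over 11683 gene pairs the median share was 4.39%, with quartiles of 1.67% and 10.5%, so Tbx15 and Tcf7l2 lay above the upper quartile. Their share was of the same order in every class with enough UMIs. For Tbx15 it was 24.8% in FAP-like, 20.9% in tenocyte-like, 23.4% in mural-like and 25.6% in satellite cell-like cells. In chimera mouse FAP-like cells the rat gene held 5.77% of Tbx15, 0.581% of Prrx1 and 0.759% of Tcf7l2 UMIs, and in mouse tenocyte-like cells 25% (12.1 to 42.2) of Tbx15 UMIs. Chimera rat levels of Tbx15 and Tcf7l2 on rat genes are therefore lower than the total counted for these genes.

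In mouse cells of the chimera, which come from the injected iPSCs, FAP-like cells carried 7 of the 9 factors with at least 15 UMIs each. Against the unnamed cluster with satellite cell markers, 5 of the 9 were higher in FAP-like cells (25.7% of all genes) and 4 had under 50 UMIs. Prrx1, Tcf7l2 and Tbx15 differed by log2 ratios of 1.86 (1.27 to 2.55), 1.50 (1.00 to 2.06) and 1.98 (1.26 to 2.87). Osr1 and Twist1 held no UMI in the unnamed cluster, where 3 counts would be 6.51 CPM, which puts mouse FAP-like cells at least 4.45-fold and at least 11-fold higher. In the same cluster Tbx18 held 1 and Twist2 held 0 UMIs, too few to place them.

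Set beside chimera rat FAP-like cells, mouse FAP-like cells were lower in 1 factor, Tbx18, at 8.05 CPM (15 UMIs) and 23.0 CPM, a log2 ratio of -1.41 (-2.36 to -0.78). In this comparison 32.7% of all genes differed by 2-fold, and the 2 species have different gene annotations, so 1 of the 7 counted factors is no result beside it. In tenocyte-like cells none of 6 factors differed by 2-fold, against 30.8% of all genes, with mouse and rat levels of 132 and 181 CPM for Prrx1, 104 and 72.3 for Twist1, 15.4 and 24.7 for Twist2, 61.6 and 61.2 for Tcf7l2, 46.2 and 46.3 for Tbx15 and 12.0 and 11.9 for Tbx18. Mouse Tbx18 rests on 7 UMIs and mouse Twist2 on 9, and the other species' gene held 20.9% of the Tbx15 UMIs of the rat and 25% of those of the mouse tenocyte-like cells.

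Over the named classes of rat cells, the factors differed in which genes had the most similar pattern, measured as Pearson r of log2(CPM + 10) over 14 SD rat classes and given as a description. For Prrx1 the most similar of all genes was another member, Tbx15, with r of 0.917 in the SD rat and 0.951 over 13 classes of chimera rat cells. Olfml1 (0.901 and 0.938) and Pth1r, the receptor of parathyroid hormone (0.889 and 0.848), followed. Twist1 was most like Loxl2, a collagen crosslinking enzyme (0.973 and 0.97), and the homeobox genes Prrx2 (0.97 and 0.896) and Shox2 (0.966 and 0.962). Twist2 was most like Aff2 (0.962 and 0.925), Chrd, which encodes the bone morphogenetic protein inhibitor chordin (0.957 and 0.944), and Phex (0.957 and 0.773), and the 2 Twist genes correlated with each other at 0.93 and 0.89. Tbx18 was most like Dact3 (0.953 and 0.944), Amph (0.948 and 0.869) and Sprn (0.947 and 0.916). Tbx15 was most like Prrx1, Irs1, an adaptor of insulin signalling (0.915 and 0.927), and Sobp (0.841 and 0.932). The nearest genes of Tcf7l2, Arhgap21 (0.98), Zfp36l1 (0.976) and Usp37 (0.948), and of Osr1, Cacna2d3 (0.930), Rprml (0.920) and Pthlh (0.875), held less well in chimera rat cells, at 0.806, 0.710, 0.666 and at 0.782, 0.834, 0.500. The 2 sets of classes are not the same, since that of the SD rat also holds an erythroid-like class. The neutrophil or monocyte-like classes of the 2 libraries, which differ in Tcf7l2, may not hold the same cells. The part of these differences in the lower r was not tested. Classes of 1 library share free RNA and depth, and r can be high for any pair of genes that the mesenchymal classes share.

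Within FAP-like cells, a link between factors in single cells was not detectable at equal depth. Cells were thinned to 1000 UMIs each, and those under 1000 UMIs were left out. The share of cells with 1 factor was then compared between cells with and without another, over 42 ordered pairs in each library. The exact intervals of the 2 shares overlapped in all pairs. Prrx1 was found in 14.5% (7.17 to 25) of SD rat FAP-like cells with an Osr1 UMI and in 15.7% (14.4 to 17.0) of those without, and in chimera rat cells in 28.2% (18.6 to 39.5) and 17.7% (16.2 to 19.2). Twist1 was found in 7.27% (2.02 to 17.6) of SD rat cells with and 6.23% (5.41 to 7.13) of cells without a Twist2 UMI. These counts are sparse, so the intervals leave room for a link of moderate size.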

How the data were processed

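Single-cell RNA libraries of 1 rat-mouse chimera and 1 SD rat were used, and per the file headers the authors used Cell Ranger 7.1.0 to make the deposited UMI counts of each gene in each cell, which carry no normalization. Per the submitters' notes the genomes were mRatBN7.2 and GRCm39, and the authors mapped the chimera to both and the SD rat to the rat genome alone. Only barcodes called as cells were in the files used.

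Cells were kept with at least 500 UMIs, 200 genes and at most 20% mitochondrial UMIs, and doublets predicted by Scrublet in scanpy 1.11.5 (expected rate 8%) were removed, 428 of 12174 chimera and 168 of 8980 SD rat cells. Each species and library was clustered separately in Python 3.11.15 (counts scaled to 10000, 2000 variable genes without the 9 factors and mitochondrial genes, 30 components, 15 neighbours, leidenalg 0.10.2 at resolution 1). Clusters were named from marker lists by the markers raised at least 2-fold in at least 10% of cells, FAP-like subtypes and cycling or Myog-led clusters by rules set after the clusters were seen. These names were rebuilt here, and the cells behind a name may differ from those of the study.

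UMIs were summed per class and divided by the own-species UMIs of the class. Intervals are exact 95% Poisson for levels, binomial for shares (Clopper-Pearson) and binomial for the 2 sums behind a log2 ratio (scipy 1.17.1), where the interval is without and the ratio with 1 CPM added. A sum of 0 is given with the level of 3 counts over the class. With 1 library per group, no p-value was computed. The ratio and interval code was tested on simulated data. Named genes were the 9 factors, a list of 58 other mesenchymal transcription factors, and the 3 genes most like each factor with at least 100 UMIs. The factors and lists were chosen with earlier results of these data known. Alternatives were at least 1000 UMIs per cell, doublets kept, resolution 2, the factors used for clustering, species calls at 90% and 10%, rat and mouse genes summed, 10 CPM added, no minimum or a minimum of 200 UMIs, and centring on the median of all genes.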

Additional observations from a re-analysis of the deposited data

Results flagged for a closer look

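Tcf7l2 lay on opposite sides of equality between FAP-like and EC-like cells in the 2 libraries. Its log2 ratio of FAP-like over EC-like cells was -0.28 (-0.38 to -0.18) in the SD rat and 0.17 (0.04 to 0.31) in chimera rat cells, and the difference between the libraries was not tested, since each is 1 animal. In chimera rat cells 17.6% (16.6 to 18.6) of Tcf7l2 UMIs in FAP-like and 19.7% (16.7 to 23.0) in EC-like cells lay on the mouse gene. Both ratios are under 2-fold.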

How the results depend on the processing

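The counts of factors higher in FAP-like than in satellite cell-like cells stayed at 7 in the SD rat and 6 in chimera rat cells under the 4 alternatives run for both, and 0 factors passed 2-fold between chimera rat and SD rat FAP-like cells under all 10. No level in mouse classes moved beyond its counting interval under the 4 alternatives run. With species calls at 90% and 10% only 27 of the 36 mouse levels could be compared, because not every mouse class was found there. Of 162 rat levels, 12 moved with at least 1000 UMIs per cell, 11 at resolution 2, 7 with doublets kept and 0 with the factors used for clustering. Tbx15 in SD rat EC-like cells moved from 13.2 to 27.6 CPM with doublets kept, and in the Myoc Sfrp4 Prg4 subtype Osr1 moved from 21.0 to 38.4 and Twist2 from 10.2 to 18.0 CPM at resolution 2. Of the log2 ratios of chimera rat to SD rat, 8 of 35 moved with rat and mouse genes summed, and 20 of 31 with species calls at 90% and 10%. These calls left out most chimera rat FAP-like and tenocyte-like cells. No pericyte-like chimera rat cluster was named there, and satellite cell-like cells gave no comparison. The shares on the mouse gene moved for 5 of 7 factors at those calls, Tbx15 from 27.2% to 32.3%. Against EC-like cells, an alternative chosen after seeing the data, with doublets kept, took the satellite cell-like calls of Prrx1 and Tbx15 under 2-fold in the SD rat, and no other call of the factors in FAP-like or satellite cell-like over EC-like rat cells. At these counts Tcf21 and Tbx5, and 4 of the 9 factors in mouse comparisons of FAP-like with other classes, had under 50 UMIs. No paired analysis was possible because each group is 1 library and no result comes from a test.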

Other observations

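Other mesenchymal and patterning transcription factors, a list of 58 of which 57 were matched to a rat gene, were split between the classes. Between FAP-like and satellite cell-like cells of the SD rat, 15 were higher, 6 lower and 25 within 2-fold, and 11 had under 50 UMIs. Among chimera rat cells 17 were higher and 5 lower. Of all genes tested, 16.9% were higher and 13.6% lower in the SD rat, and 18.8% and 12.9% in chimera rat cells. Their median log2 ratio was 0.27 and 0.35, beside -0.18 and -0.06 for all genes. Ebf1, an early factor of adipocyte and B cell fate, stood at 675 CPM in FAP-like and 24.2 in satellite cell-like cells of the SD rat. Prrx2, the homologue of Prrx1, was at 76.1 and 2.30 CPM and at 78.4 and 2.23 CPM in the 2 libraries, so the satellite cell-like signal of Prrx1 had no match in Prrx2. Runx1 had the opposite order, at 106 and 598 CPM in the SD rat and 88.1 and 600 CPM in chimera rat cells, as did Eya1, a cofactor in myogenic cells, at 1.69 and 30 CPM and at 1.24 and 35.3 CPM.

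Tenocyte-like cells were marked by Mkx, a homeobox factor of tendon, at 54.9 CPM beside 1.71 in FAP-like cells of the SD rat and 48.8 beside 1.72 in chimera rat cells. Meox1 followed at 28.2 beside 4.09 and at 40.9 beside 3.45 CPM. Osr2, the homologue of Osr1, was higher in FAP-like than in tenocyte-like cells, at 24.7 and 2.41 CPM in the SD rat and 34.8 and 4.40 CPM in chimera rat cells. Zeb2 was also higher in FAP-like cells, at 542 and 111 CPM and at 423 and 72.7 CPM. Over the list, 5 genes were higher and 7 lower in FAP-like than in tenocyte-like cells of the SD rat, and 11 and 6 in chimera rat cells. The shares of all genes were 9.31% and 5.41% in the SD rat and 10.8% and 4.85% in chimera rat cells, and the 5 of 46 counted genes higher in the SD rat are near that background.

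Mural-like cells held Tbx2, a T-box repressor, at 25.2 CPM beside 3.10 in FAP-like cells of the SD rat and at 45.6 beside 3.10 in chimera rat cells. Nr2f2, a nuclear receptor of venous and mesenchymal cells, stood at 113 beside 33.2 and at 133 beside 32.0 CPM. Over the list 10 genes were higher and 13 lower in FAP-like than in mural-like cells of the SD rat, and 10 and 8 in chimera rat cells, beside 10.2% and 18.4% of all genes in the SD rat and 14.0% each way in chimera rat cells.

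Between chimera rat and SD rat FAP-like cells, 1 of the 48 counted genes of the list differed by 2-fold on rat genes, a share near the 2.39% of all genes. This was Klf4, an early response factor that tissue dissociation is known to induce, at 474 and 1250 CPM (log2 ratio -1.4, -1.43 to -1.38). With rat and mouse genes summed in chimera rat cells, Klf4 stood at 889 CPM and the log2 ratio was -0.50 (-0.52 to -0.48), under 2-fold.

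In the 1656 chimera barcodes with between 20% and 80% of UMIs on mouse genes, Prrx1 stood at 95.4 CPM on the rat and 14.1 on the mouse gene, Tcf7l2 at 128 and 138, and Tbx15 at 79.5 and 34.4. These barcodes entered no class.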
